A study of Homo sapiens with 4 samples.

Results

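Pyruvate made by glycolysis enters the mitochondrion through a carrier, is oxidised to acetyl-CoA and is burned in the citric acid cycle. The genes described here are 36 nuclear genes of this route, matched to the files by gene symbol: the mitochondrial pyruvate carrier, the pyruvate dehydrogenase complex with its regulators, the cycle enzymes from citrate synthase to malate dehydrogenase, and the carriers and aminotransferases of the malate-aspartate and citrate shuttles. Of the 13036 genes listed in the files, 35 were members, with 121 of the 38510 listed transcripts, and the kinase gene PDK3 was not analysed here. All 35 had at least 1 FPKM in at least 2 samples and were tested among 11657 genes. The leading result was a single enzyme: the transcript level of CS, citrate synthase, was 90.0 and 103 FPKM in the control samples and 27.8 and 28.5 FPKM after knockdown of KIAA1429, while the log2 fold changes of the other members lay between -0.55 and 0.37 apart from SDHA (1.72).

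To profile gene expression after loss of KIAA1429, RNA was sequenced from HCCLM3, a human hepatoma cell line of high metastatic capacity, infected with a lentivirus that carried a short hairpin RNA. The shCtrl group (n = 2) carried a control hairpin and the shKIAA1429 group (n = 2) a hairpin against KIAA1429, which encodes a subunit of the complex that writes N6-methyladenosine on RNA. Nothing in the labels says whether the 2 samples of a group were separate cultures. The limma p-values set the group difference against the spread between samples of a group, estimated in part from other genes. That spread may be technical. The labels name 1 line and 1 hairpin per group, so a property of the hairpin and the loss of its target cannot be told apart.

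Background to the pathway is as follows. Pyruvate dehydrogenase commits carbon from glucose to the mitochondrion, and its kinases switch it off by phosphorylation while its phosphatases switch it on. Citrate synthase joins acetyl-CoA to oxaloacetate, and the citrate either goes round the cycle, where its dehydrogenases yield NADH and succinate dehydrogenase feeds electrons to the respiratory chain, or leaves through the citrate carrier for fatty acid synthesis. The malate-aspartate shuttle brings reducing equivalents from the cytosol into the mitochondrion.

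Levels are FPKM, fragment numbers corrected for transcript length and library size, summed over the listed transcripts of a gene. Fold changes compare shKIAA1429 with shCtrl as differences in log2(FPKM + 1), with limma SEs, and adjusted p-values cover all genes tested. The FPKM of all listed transcripts summed to between 370253 and 390224 per sample. Read depth is unknown, so the counting error of the values could not be computed. The targeted gene, listed as VIRMA, was at 9.37 and 14.1 FPKM in the controls and at 6.90 and 8.52 FPKM after knockdown, a log2 fold change of -0.53 (SE 0.24, limma adjusted p = 0.917). Of 9 hepatocyte markers only SERPINA1 had a row, summing to 3.34 to 5.63 FPKM, so the liver identity of the line could not be read from its defining markers ALB and AFP. Of 4 epithelial markers, the keratins KRT8 and KRT18 together held 2089 to 2206 FPKM, whereas EPCAM and CDH1 had no row. The mesenchymal markers with a row, 3 of 4, held 1019 to 1284 FPKM, mostly VIM. CD68 alone of 3 immune markers had a row at 44.1 to 52.3 FPKM, and neither endothelial marker had a row.

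CS occupies positions 56665485 to 56694176 of chromosome 12 (GRCh37, minus strand), and 8 of its transcripts were listed. The printed sequences show where CS-233 departs from CS-201 and where the annotated start codon of CS-212 lies. The CS-201 stretches printed are also in CS-212, whose additional exon, described below, is not printed. Exon numbers and sequences are from the GENCODE annotation (release 44 lifted to GRCh37), whose transcript versions differ in part from those in the files. CS-201 (ENST00000351328.7_1) is the full-length transcript, with 11 exons and 466 codons. CS-212 (ENST00000548567.5_1) shares 2913 exonic bases with it and has an additional noncoding exon of 83 bases, at chr12:56692393-56692475, and its annotated start codon is the last codon of exon 3 of CS-201, in the same reading frame and 66 codons after the start of that transcript. CS-233 joins exon 2 directly to exon 4 and so leaves out the 108 bases (36 codons) of exon 3, at chr12:56679700-56679807. It is a partial model of 5 exons and 157 codons that ends within exon 6 of CS-201. In the lines that follow, capitals mark the start codon annotated for CS-212 in the first sequence and the bases after the splice junction in the others, read 5′ to 3′ on the minus strand.
CS-201, end of exon 3: acggtggtgggccaaatcactgtggacATG
CS-201, exons 2 and 3: agtgcttcctccacgAATTTGAAAGACATA
CS-201, exons 3 and 4: atcactgtggacatgATGTATGGTGGCATG
CS-233, exons 2 and 4: agtgcttcctccacgATGTATGGTGGCATG

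Among succinate dehydrogenase, 2-oxoglutarate dehydrogenase and dihydrolipoamide acetyltransferase transcripts, the listed forms also differ by whole coding exons, and their sequences are given for the exons on which the values below turn. Exon 4 of SDHA-201, at chr5:225534-225677 on the plus strand, has 144 bases (48 codons) and is absent from SDHA-213. SDHA-204 lacks a neighbouring pair of exons of 243 bases (81 codons) near the 3′ end. OGDH-205 holds a 45-base exon (15 codons), at chr7:44695917-44695961 on the plus strand, that OGDH-201 lacks. DLAT-202 lacks a pair of exons that together hold 315 bases (105 codons) of DLAT-201. Each of these differences is a multiple of 3 bases. Capitals mark the bases after the junction, and the whole exons have no capitals.
SDHA-201, exon 4: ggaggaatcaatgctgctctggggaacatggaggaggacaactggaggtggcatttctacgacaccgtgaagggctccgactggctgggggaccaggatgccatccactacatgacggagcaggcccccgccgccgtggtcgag
SDHA-201, exons 3 and 4: actgttgcagcacagGGAGGAATCAATGCT
SDHA-213, exons 3 and 4: actgttgcagcacagCTAGAAAATTATGGC
SDHA-204, exons 11 and 12: ctcagcatgcagaagGTGCGGATTGATGAG
OGDH-205, exon 5: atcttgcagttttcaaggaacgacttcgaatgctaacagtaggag
OGDH-201, exons 4 and 5: ccacagacaaacttgGGTTCTATGGCCTGG
DLAT-201, exons 4 and 5: ccccctcacatgcagGTACTTCTTCCTGCC
DLAT-202, exons 4 and 5: ccccctcacatgcagGTGGCCGCTGTTCCT

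To ask whether the pathway as a whole moved with the knockdown, the members were first counted. None of the 35 passed the study's thresholds by limma, which are an adjusted p below 0.05 together with a log2 fold change beyond 1 in either direction, and 0.0% of all genes tested did. At an unadjusted p under 0.05 there were 5 members (CS, SDHA, SDHD, SLC25A11 and IDH2), which is 14.3% of the 35 against 5.63% of all genes. Only CS was below a log2 fold change of -1, as 0.575% of all genes did, and only SDHA exceeded 1, as 0.498% did, both counts without a test. In 7 members both shKIAA1429 samples were below both shCtrl samples (CS, SDHD, MPC2, SLC25A11, OGDH, GOT1 and SDHB), which is 20.0% of the 35 against 16.7% of all genes. In 4 both were above (SDHA, IDH2, IDH3B and SDHC), which is 11.4% against 16.9% of all genes. These last shares lay near the background, 1 a little above it and 1 below it, whereas the share at an unadjusted p under 0.05 lay above. Without CS, that share was 4 of 34 (11.8%), and the members were chosen with earlier results of these data known. The group separation of SDHA and SDHD depended on a few transcripts, given below.

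The median log2 fold change of the members was -0.044, and that of all genes tested was -0.0083. Without CS, the median size of the fold change, whatever its sign, was 0.13 over the remaining 34 members and 0.14 over all genes. Summed over the members, the route held 1061 and 1108 FPKM in the controls and 941 and 1000 FPKM after knockdown. With CS left out, the sums were 971 and 1006 FPKM in the controls and 913 and 972 FPKM after knockdown, so the groups overlapped. CS supplied 8.49% and 9.25% of the summed level in shCtrl, and 2.95% and 2.85% in shKIAA1429.

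**Figure D1:**
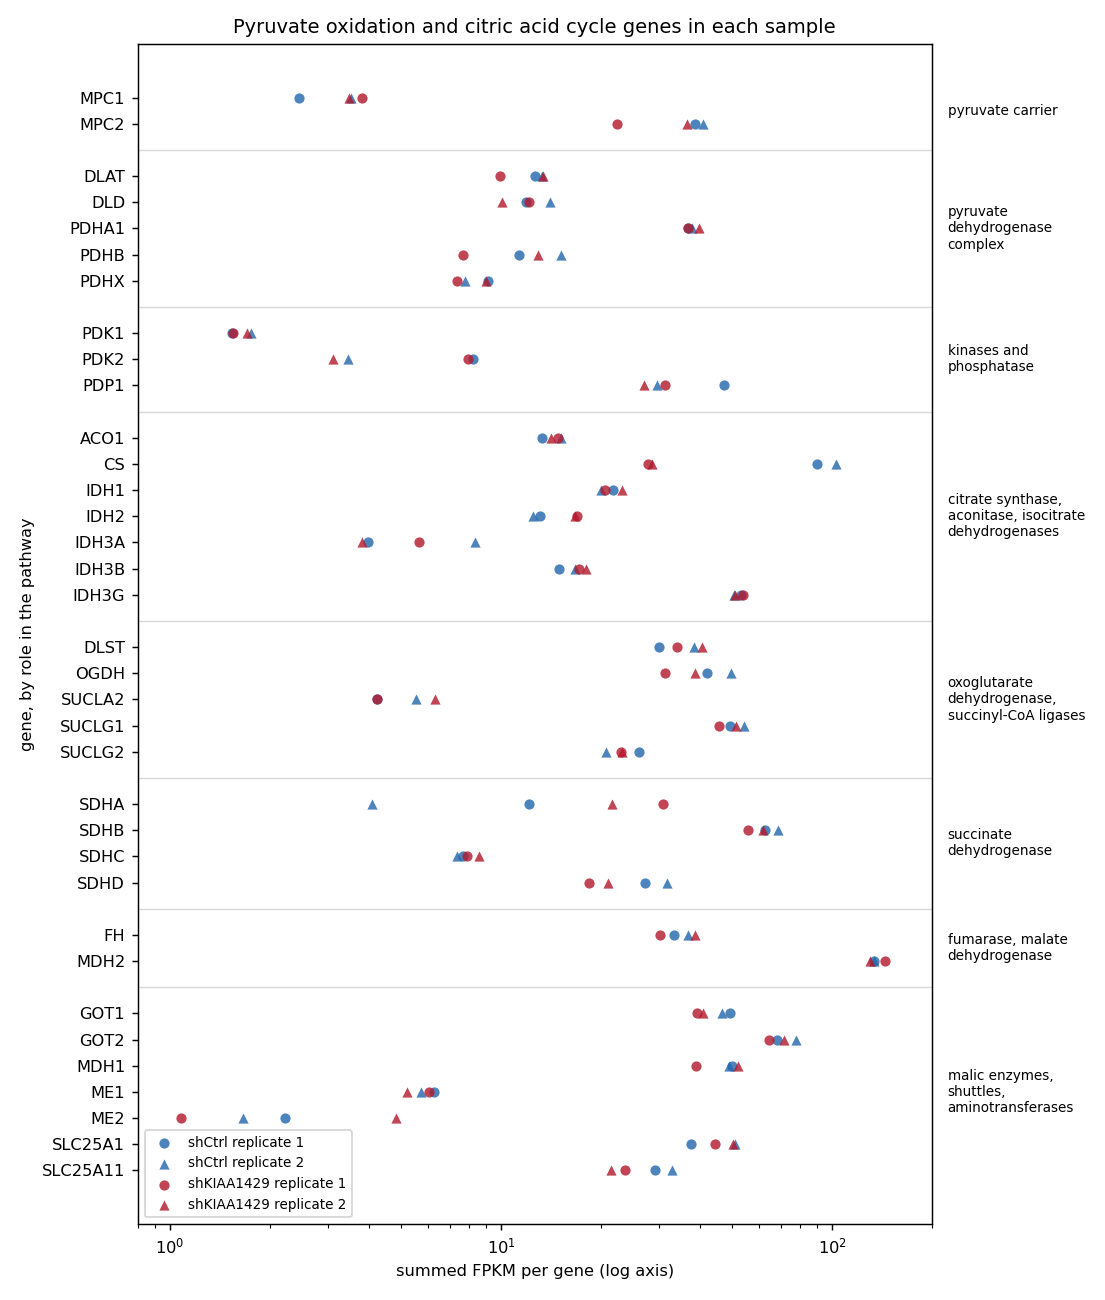
Summed FPKM (log axis) of the 35 listed genes in each of the 4 samples, grouped by role, with blue for shCtrl, red for shKIAA1429, circles for replicate 1 and triangles for replicate 2. The red points of CS sit at 27.8 and 28.5 FPKM, far left of its blue points at 90.0 and 103 FPKM, whereas in most other rows the colours mix.

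Entry of pyruvate comes first. MPC1 and MPC2 form the carrier of the inner mitochondrial membrane. MPC2 was at 38.5 and 40.8 FPKM in the controls and at 22.4 and 36.5 FPKM after knockdown, so both knockdown samples were lower but replicate 1 much more so. Its log2 fold change was -0.46 (SE 0.25, limma adjusted p = 0.944), and without shKIAA1429 replicate 1 it was -0.11. The low value came from MPC2-201, at 28.9 and 31.6 FPKM in the controls and at 10.8 and 28.3 FPKM after knockdown. MPC1 was far lower, at 2.46 and 3.54 FPKM against 3.81 and 3.47 FPKM, and its groups overlapped.

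In the pyruvate dehydrogenase complex, 0 of the 5 genes had groups that did not overlap. PDHA1, the catalytic alpha subunit and an X-linked gene, was the most abundant at 36.8 and 37.8 FPKM in the controls and 36.8 and 39.6 FPKM after knockdown, a log2 fold change of 0.034 (SE 0.13, limma adjusted p = 0.999). PDHB, the beta subunit of the same enzyme, was lower and more variable, at 11.3 and 15.2 FPKM against 7.66 and 12.9 FPKM. DLAT, the acetyltransferase core, was at 12.6 and 13.3 FPKM against 9.90 and 13.4 FPKM. DLD, the dehydrogenase shared with the oxoglutarate complex, and PDHX, the protein that binds it to the core, ranged over the 4 samples from 10.1 to 14.1 FPKM and from 7.39 to 9.13 FPKM. The 5 log2 fold changes lay between -0.36 and 0.034.

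Among the regulators, PDK1 was the least abundant member in both groups, at 1.54 and 1.76 FPKM in the controls and 1.55 and 1.71 FPKM after knockdown. PDK2 split by replicate number and not by hairpin, at 8.22 and 3.45 FPKM against 7.97 and 3.10 FPKM. In shKIAA1429 replicate 1, 6.24 of the 7.97 FPKM stood under PDK2-216, a transcript listed at or near 0 in the other samples. PDP1, the phosphatase that reactivates the complex, was at 47.0 and 29.7 FPKM in the controls and at 31.3 and 27.0 FPKM after knockdown, with only shCtrl replicate 1 standing high.

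CS opens the cycle, and its 4 values were given above: the 2 groups were far apart and the replicates of each were close. The control mean was 96.3 ± 8.83 FPKM (SD, n = 2) and the knockdown mean 28.2 ± 0.538 FPKM (SD, n = 2), or 29.2% of the control mean. The log2 fold change was -1.74 (SE 0.13), and 0 of the 11657 genes had a smaller unadjusted p, yet the limma adjusted p was 0.238. Of the 7476 genes tested with a mean of at least 5 FPKM, 4 had a lower log2 fold change. An exact permutation test of CS alone gave p = 0.333 (two-sided), the smallest that 2 samples against 2 can give. Among the members, CS ranked 2 by mean level in shCtrl, after MDH2, and 15 in shKIAA1429.

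**Figure D2:**
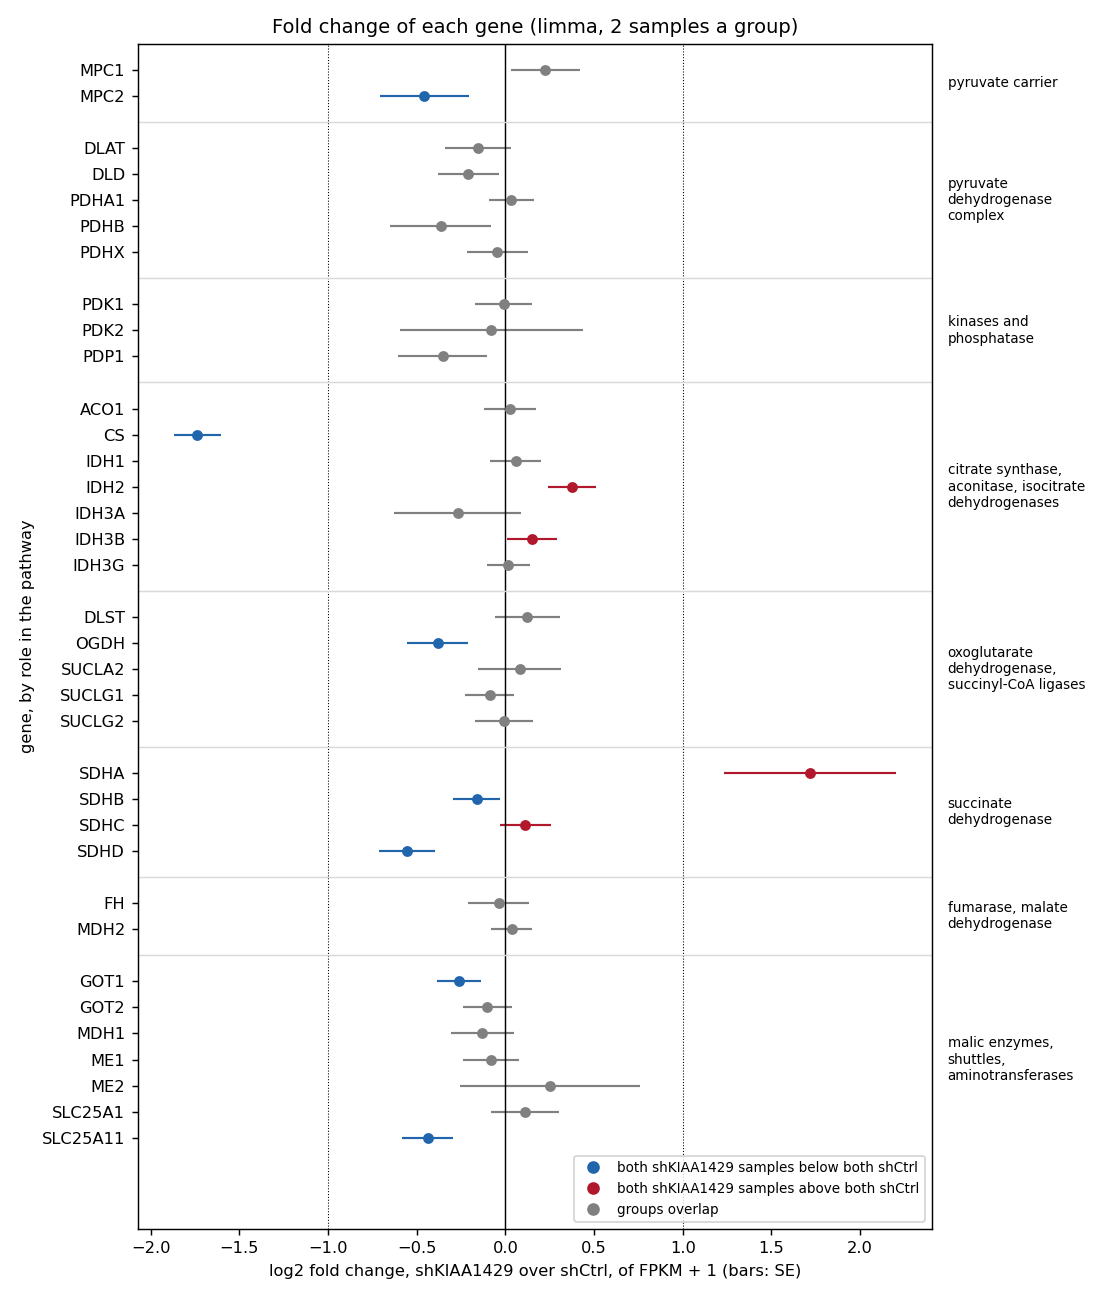
Log2 fold change of each gene, shKIAA1429 over shCtrl, on the log2(FPKM + 1) scale, with its SE from limma as a bar and dotted lines at -1 and 1. CS at -1.74 and SDHA at 1.72 stand outside the dotted lines, the bar of SDHA (SE 0.49) being much wider than that of CS (SE 0.13).

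The difference in CS stood in CS-201. That transcript was at 82.1 and 73.2 FPKM in the controls and at 15.0 and 15.3 FPKM after knockdown, a log2 fold change of -2.28 (SE 0.13, limma adjusted p = 0.113 over 24996 transcripts). This difference was 91.7% of the difference in the gene's mean FPKM. Of the 24996 transcripts, 21 had a smaller unadjusted p than CS-201. CS-212 was at 5.60 and 25.7 FPKM in the controls and at 6.66 and 8.20 FPKM after knockdown, so its groups overlapped and shCtrl replicate 2 alone was high. CS-233, the partial model without exon 3, was at 0.516 and 0.588 FPKM in the controls and at 2.18 and 1.54 FPKM after knockdown. It was higher in both knockdown samples, with a log2 fold change of 0.87 (SE 0.22, limma adjusted p = 0.569). Only its knockdown samples reached 1 FPKM, so it passed the filter only through the group where it was higher.

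Of the remaining CS transcripts, CS-219 was at 0.707 and 0.908 FPKM against 2.38 and 0 FPKM. CS-229 reached 1.33 FPKM in shKIAA1429 replicate 2 and no more than 0.0371 FPKM elsewhere. CS-202, CS-226 and CS-230 stayed at or below 1.03 FPKM in every sample, and none of these 3 nor CS-219 and CS-229 had groups that separated. With CS-201 set aside, a choice made after its values were seen, the other 7 transcripts together held 7.95 and 29.4 FPKM in the controls and 12.8 and 13.3 FPKM after knockdown, so the groups overlapped. As a share of the gene, CS-201 held 91.2% and 71.4% in shCtrl and 54.0% and 53.5% in shKIAA1429, while CS-212 held 6.22% and 25.1% against 24.0% and 28.7%. Shares of overlapping transcripts depend on how fragments were assigned between them, which the sources used here do not state.

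**Figure D3:**
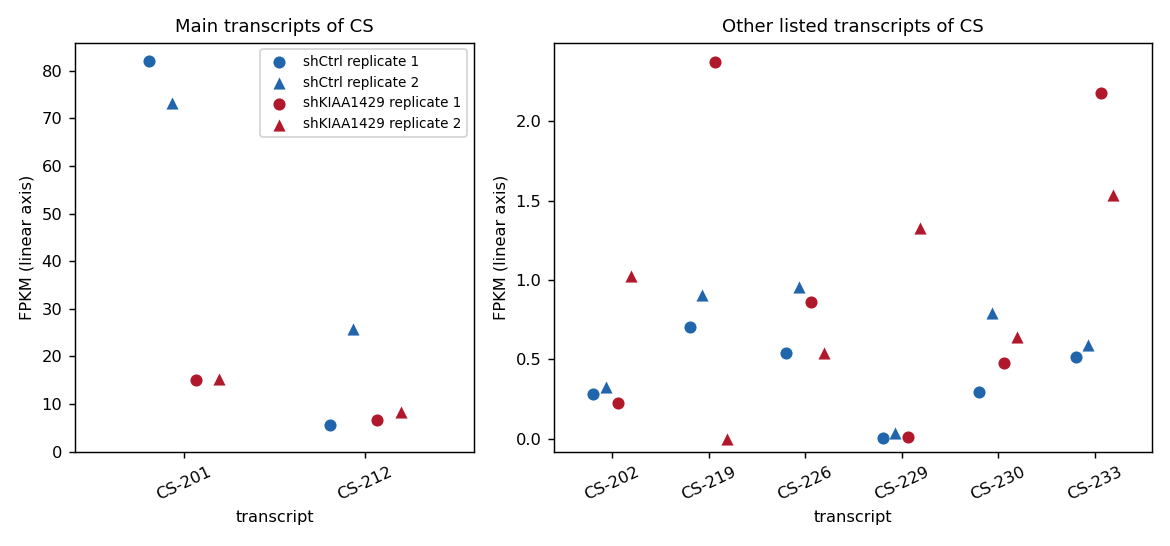
FPKM of the 8 listed CS transcripts in each sample on linear axes of different range, with CS-201 and CS-212 on the left and the 6 scarce transcripts on the right (blue shCtrl, red shKIAA1429, circles replicate 1, triangles replicate 2). CS-201 lies at 82.1 and 73.2 FPKM in blue and at 15.0 and 15.3 FPKM in red, and CS-233 is the only scarce transcript whose red points both lie above its blue points.

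Neighbouring genes were read to see whether the region moved with CS. AC073896.1, annotated on the same strand from 56679700 to 56709828 and so overlapping the 5′ part of CS, was at 1.01 and 1.40 FPKM in the controls and at 3.06 and 1.89 FPKM after knockdown, a log2 fold change of 0.64. Next to CS, CNPY2 was at 23.1 and 27.7 FPKM against 25.6 and 23.5 FPKM, and COQ10A at 7.10 and 1.73 FPKM against 4.18 and 3.18 FPKM. ANKRD52 was at 18.5 and 23.1 FPKM against 23.3 and 28.5 FPKM. None of these 4 had both knockdown samples below both controls. By the distance between centred log2(FPKM + 1) values over the 4 samples, the genes most like CS among the 7476 were C7, DDA1, LCE1F, STX5 and OLR1, at distances of 0.38 to 0.50 on the log2 scale. The nearest, C7, was at 17.2 and 14.0 FPKM against 4.76 and 4.49 FPKM, and none of the 5 belongs to the route.

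After citrate, aconitase and the isocitrate dehydrogenases follow. ACO1, the cytosolic aconitase that doubles as an iron regulatory protein, ranged from 13.3 to 15.2 FPKM with overlapping groups. IDH2, the mitochondrial NADP-linked isocitrate dehydrogenase, was at 13.1 and 12.5 FPKM in the controls and at 17.0 and 16.7 FPKM after knockdown. Both knockdown samples were thus higher and the replicates lay close together, with a log2 fold change of 0.37 (SE 0.13, limma adjusted p = 0.884). Its transcript IDH2-201 held at least 91.8% of the gene in each sample. IDH1, the cytosolic counterpart, was at 21.8 and 20.1 FPKM against 20.6 and 23.1 FPKM.

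The NAD-linked enzyme of the cycle has 3 subunits that were listed at unequal levels. IDH3G, a regulatory subunit, was at 53.1 and 50.5 FPKM in the controls and at 54.0 and 50.9 FPKM after knockdown, indistinguishable between the groups. IDH3B was at 15.0 and 16.7 FPKM against 17.2 and 18.1 FPKM, higher in both knockdown samples, though the nearest values of the groups (16.7 and 17.2 FPKM) were closer than the shCtrl replicates. IDH3A, the catalytic subunit, was lower and more variable, at 3.98 and 8.32 FPKM against 5.65 and 3.80 FPKM.

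OGDH, the decarboxylating subunit of the oxoglutarate dehydrogenase complex, was at 42.0 and 49.4 FPKM in the controls and at 31.2 and 38.7 FPKM after knockdown. Both knockdown samples were lower, but the nearest values of the groups were closer than the replicates of either group, and the log2 fold change was -0.38 (SE 0.17, limma adjusted p = 0.917). It was -0.23 without shKIAA1429 replicate 1 and -0.53 without shKIAA1429 replicate 2. DLST, the succinyltransferase core of the complex, was at 30.0 and 38.2 FPKM against 34.0 and 40.4 FPKM. Of the genes of succinyl-CoA ligase, which makes the nucleotide triphosphate of the cycle, that of the shared alpha subunit, SUCLG1, had the highest level. It was at 49.1 and 54.2 FPKM against 45.6 and 51.4 FPKM. The GTP-forming beta subunit SUCLG2 was at 26.0 and 20.7 FPKM against 23.1 and 23.1 FPKM, and the ATP-forming SUCLA2, at 4.21 and 5.54 FPKM against 4.21 and 6.30 FPKM, was lower than SUCLG2 in each sample. The groups of DLST and of all 3 ligase genes overlapped.

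Succinate dehydrogenase, complex II of the respiratory chain, has 4 subunits, of which SDHA and SDHC had both knockdown samples above both controls (as 16.9% of all genes did) and SDHB and SDHD below (as 16.7% did). For SDHA and SDHD this depended on a few transcripts, given below. SDHA, the flavoprotein, was at 12.2 and 4.09 FPKM in the controls and at 30.8 and 21.7 FPKM after knockdown, so it was higher in both knockdown samples, and the replicates of either group differed widely. Its log2 fold change was 1.72 (SE 0.49, limma adjusted p = 0.753). SDHC, a membrane anchor, was at 7.69 and 7.35 FPKM against 7.88 and 8.56 FPKM, a log2 fold change of 0.11.

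The remaining pair of subunits was lower. SDHB, the iron-sulphur protein, was at 62.8 and 68.9 FPKM in the controls and at 55.9 and 61.7 FPKM after knockdown, a log2 fold change of -0.16, and the nearest values of the groups (62.8 and 61.7 FPKM) were closer than the replicates of either. SDHD, the other anchor, was at 27.2 and 31.8 FPKM against 18.4 and 21.1 FPKM, with a log2 fold change of -0.55 (SE 0.16, limma adjusted p = 0.753). Most of the SDHD difference stood in transcripts that were high in 1 control each: SDHD-202 held 6.30 FPKM in shCtrl replicate 1 and 0 elsewhere, and SDHD-205 held 9.36 FPKM in shCtrl replicate 2 and at most 0.480 FPKM elsewhere. Without these transcripts SDHD was at 20.4 and 22.4 FPKM against 18.4 and 21.1 FPKM, and the groups overlapped.

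SDHA likewise depended on 1 transcript. SDHA-213, which lacks the exon of 144 bases printed above, was listed at 0 in both shCtrl samples and at 8.31 and 11.7 FPKM in shKIAA1429. Its limma adjusted p over all transcripts was 0.114, and it passed the filter on low values only through the shKIAA1429 samples. SDHA-204 was at 9.37 and 3.25 FPKM against 12.3 and 6.44 FPKM, and SDHA-201, with all 15 exons, at 2.33 and 0.388 FPKM against 9.44 and 3.01 FPKM. Summed without SDHA-213, a choice made after its values were seen, SDHA was at 12.2 and 4.09 FPKM against 22.5 and 9.94 FPKM, the groups overlapped, and the difference of the mean log2(FPKM + 1) was 0.97. SDHA has pseudogene copies, of which SDHAP1 was listed at 5.39 and 3.99 FPKM against 5.98 and 5.86 FPKM and SDHAP3 at 1.37 and 1.42 FPKM against 0.890 and 1.62 FPKM. Values of SDHA and these copies are uncertain because reads from near-identical sequence may have been split between them.

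FH, fumarase, was at 33.3 and 36.8 FPKM in the controls and at 30.1 and 38.5 FPKM after knockdown. MDH2, the mitochondrial malate dehydrogenase that returns oxaloacetate to citrate synthase, was the most abundant member in each sample, at 134 and 134 FPKM against 145 and 131 FPKM. Both had overlapping groups, with log2 fold changes of -0.038 and 0.035. The ratio of MDH2 to CS, which use the same intermediate, was 1.49 and 1.31 in shCtrl and 5.20 and 4.58 in shKIAA1429.

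Among the shuttles, SLC25A11, the oxoglutarate-malate carrier of the malate-aspartate shuttle, was at 29.2 and 32.8 FPKM in the controls and at 23.6 and 21.6 FPKM after knockdown. Both knockdown samples were lower, by more than the gap between replicates, with a log2 fold change of -0.44 (SE 0.14, limma adjusted p = 0.835). GOT1, the cytosolic aspartate aminotransferase of the same shuttle, was at 49.2 and 46.7 FPKM against 39.0 and 40.8 FPKM, also lower in both, with a log2 fold change of -0.26 (SE 0.12, limma adjusted p = 0.921). GOT2, its mitochondrial partner, was at 68.3 and 77.6 FPKM against 64.3 and 71.4 FPKM, and MDH1, the cytosolic malate dehydrogenase, at 50.0 and 48.9 FPKM against 39.0 and 52.1 FPKM. The groups of GOT2 and MDH1 overlapped.

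SLC25A1, the citrate carrier, was at 37.4 and 50.8 FPKM in the controls and at 44.5 and 50.2 FPKM after knockdown. ME1, the cytosolic malic enzyme, ranged from 5.22 to 6.27 FPKM over the 4 samples. ME2, a mitochondrial malic enzyme, was at 2.22 and 1.66 FPKM against 1.08 and 4.83 FPKM, so the shKIAA1429 samples lay on either side of the controls. These 3 genes had overlapping groups.

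**Figure D4:**
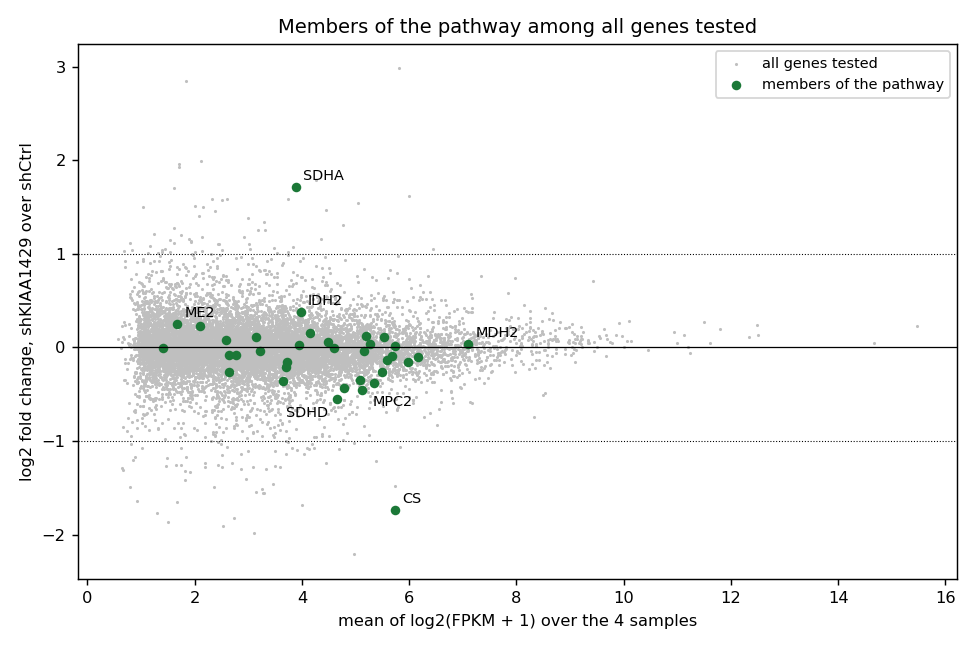
Log2 fold change (shKIAA1429 over shCtrl) against the mean of log2(FPKM + 1) over the 4 samples, for all 11657 genes tested (grey) and the 35 members (green), with dotted lines at -1 and 1. CS at -1.74 and SDHA at 1.72 lie outside the dotted lines, and the other 33 members lie between them.

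To see whether transcripts of a member traded places, each transcript was tested by itself. Of the 121 listed transcripts of members 84 were tested, and 0 passed both thresholds by limma, as did 0.0% of the 24996 transcripts tested. At an unadjusted p under 0.05 there were 10 (11.9%, against 6.28% of all). In 16 both shKIAA1429 values were below both shCtrl values (19.0%, against 16.8% of all transcripts), and in 19 both were above (22.6%, against 16.7%). CS-201 was the only one with a log2 fold change under -1, where 3.92% of all transcripts were, and 4 exceeded 1, where 3.31% of all were: SDHA-213, SDHA-201, DLST-208 and DLAT-202. DLST-208, a transcript of the noncoding processed class, was at 0.314 and 0.324 FPKM in the controls and at 3.53 and 2.61 FPKM after knockdown, while the main transcript DLST-202 overlapped between the groups. DLST-208, CS-233 and SDHA-213 reached 1 FPKM only in shKIAA1429 samples, and PDHA1-201 only in shCtrl samples. Such transcripts were tested only through the group where they were higher, and they are part of the counts above, among members and over all transcripts. MDH1-216, which is annotated as coding, was at 9.05 and 8.54 FPKM against 4.86 and 3.32 FPKM, and the most abundant MDH1-201 at 31.2 and 31.0 FPKM against 29.6 and 25.5 FPKM.

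The leading transcript of a gene is the one with the highest FPKM in a sample. Of the 30 members with 2 or more listed transcripts, 8 did not have the same leading transcript in all 4 samples, which is 26.7% against a higher 41.4% of all such genes: ACO1, DLAT, IDH3A, IDH3B, ME2, OGDH, PDK2 and SDHA. OGDH was the extreme case, with 3 leading transcripts in 4 samples. OGDH-210 held 64.4% of the gene in shCtrl replicate 1 and 63.6% in shKIAA1429 replicate 2, OGDH-205 with its 45-base exon held 62.1% in shCtrl replicate 2, and OGDH-201 held 88.5% in shKIAA1429 replicate 1. The summed OGDH level nevertheless stayed between 31.2 and 49.4 FPKM.

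DLAT showed the same in 1 control sample. DLAT-201, with all 14 exons, held 26.1% and 90.7% in shCtrl and 26.0% and 27.6% in shKIAA1429, and DLAT-202 held 69.1% and 5.40% against 66.9% and 66.4%. The shares of DLAT-201 thus differed more between the controls than between the knockdown samples. The CS-201 share was lower in both knockdown samples than in both controls. Its nearest values between the groups (71.4% and 54.0%) were nevertheless closer than the shCtrl replicates (91.2% and 71.4%). SDHA-213 held 0% in both controls and 27.0% and 54.1% in the knockdown samples.

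**Figure D5:**
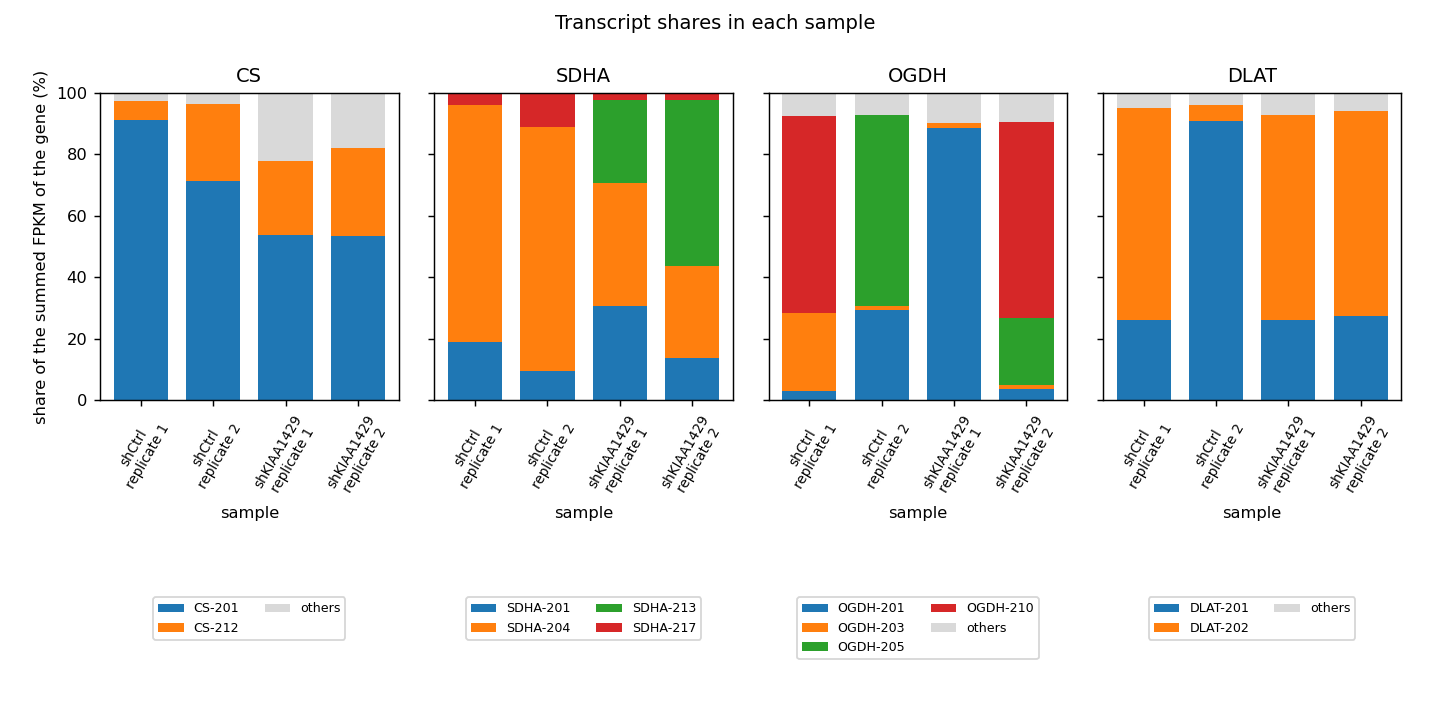
Share of each gene's summed FPKM (%) held by its transcripts in each sample, for CS, SDHA, OGDH and DLAT, with transcripts that reach 10% in some sample in colour and the rest in grey. CS-201 holds 91.2% and 71.4% in shCtrl and 54.0% and 53.5% in shKIAA1429, the SDHA-213 segment appears in the shKIAA1429 bars only, and the OGDH bars differ between the replicates of each group, as the DLAT bars do between the controls.

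Other genes of the pathway were taken from a list of 32 that are no members, among them the lipoylation and thiamine genes, the assembly factors of succinate dehydrogenase, and enzymes next to the route. Of these 27 were listed and 26 tested, 0 passed both thresholds by limma, and 1 had an unadjusted p under 0.05. In 3 both shKIAA1429 samples were below both controls (11.5%: ACLY, SDHAF1 and SDHAF3) and in 3 above (11.5%: NNT, ME3 and SDHAF4). The median log2 fold change was -0.062. ACLY, which cleaves exported citrate in the cytosol, was at 160 and 192 FPKM against 94.6 and 142 FPKM, a log2 fold change of -0.59 (SE 0.23, limma adjusted p = 0.887). NNT, which passes electrons from NADH to NADP, was at 11.2 and 9.52 FPKM against 13.4 and 15.0 FPKM, a log2 fold change of 0.42 (limma adjusted p = 0.884).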

How the data were processed

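RNA-seq values of 4 HCCLM3 samples (2 shCtrl, 2 shKIAA1429) were used. The deposited files hold FPKM per annotated transcript, made by the authors with a tool not given in the sources used here; the submitters' processing notes name Bowtie2 2.1.0 and hg19, and the methods of the study name TopHat, HTSeq counts and DESeq. Every listed transcript exceeded 0.5 FPKM in at least 1 sample (lowest maximum 0.504). FPKM was summed per gene identifier. Strand and multiple-mapping rules are not given, so overlapping, antisense and copied genes remain uncertain. After a filter of at least 1 FPKM in at least 2 samples, log2(FPKM + 1) entered limma 3.58.1 under R 4.3.3 (group term only, trend, two-sided, 2.87 prior degrees of freedom), with Benjamini-Hochberg adjustment over all genes or all transcripts tested. A pseudocount of 1 understates changes of low genes. Replicates are numbered in the titles. Between same-numbered samples, deviations from the group mean correlated at 0.32 over the genes tested, but 2 pairs are too few to call them paired. Sequences were read from GENCODE transcripts of GRCh37. Members and lists were chosen with earlier results of these data known. Values per sample are given for CS, for members whose groups did not overlap, for the 5 largest fold changes and for members of each role; transcripts were named at a mean of 1 FPKM or more in a group, and the other CS transcripts besides. The alternatives tried were pseudocount 0.1, other filters on low values, upper quartile scaling, the replicate block, leaving out each sample, a robust variance, and other ways to sum transcripts. Single-gene tests were exact permutations in scipy 1.17.1; plots used matplotlib 3.10.9. Single values are given for only some of the other pathway genes, and 1 item is not reported here.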

Additional observations from a re-analysis of the deposited data

How the results depend on the processing

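All values are from FPKM with 2 samples a group, and neither depth nor the assignment of fragments to transcripts is known, which limits low values and transcript shares most. The number of genes past both thresholds stayed at 0 except by fold change alone (125) and in the fits without 1 sample (0 to 1, the 1 being HIST4H4 without shCtrl replicate 1). For transcripts it was 0 to 0 in those fits. CS was at -1.74 and stayed between -2.28 and -1.72 over 8 alternatives (limma adjusted p 0.103 to 0.303), and between -1.83 and -1.64 without 1 sample. CS-201 stayed between -2.35 and -2.27 over 3 alternatives (limma adjusted p 0.113 to 0.55), and between -2.37 and -2.20 without 1 sample. With the replicate block the counts of genes and of transcripts past both thresholds stayed at 0, so no call changed. The block leaves the values and, in this balanced design, the fold changes as they are. The members whose groups did not overlap (7 lower and 4 higher) and the median of the members (-0.044) therefore could not change with the block. Those counts were 9 lower and 6 higher with the highest transcript only, and 7 lower and 5 higher with upper quartile scaling. The median was -0.079 with protein-coding transcripts only, -0.056 with the highest transcript only and -0.032 with upper quartile scaling. The permutation p of CS was 0.333 with a pseudocount of 0.1 too, which was fixed because its groups do not overlap.

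Without 1 sample, the members with groups apart numbered 12 to 15 lower and 7 to 12 higher, since fewer values have to lie apart, and the median of the members lay between -0.085 and -0.0052. Some members turned direction under an alternative. With the highest transcript only, the log2 fold change was 1.09 for DLAT, -0.064 for PDHA1, 0.077 for PDK1, -0.047 for IDH3G and 0.086 for SUCLG2. With protein-coding transcripts only PDHA1 was at -0.056, and with upper quartile scaling SUCLG2 was at 0.0078. Leaving out 1 sample turned ACO1 (-0.062 to 0.11), DLAT (-0.36 to 0.049), DLST (-0.045 to 0.29), FH (-0.21 to 0.13), IDH1 (-0.022 to 0.14), IDH3A (-0.72 to 0.18), IDH3G (-0.024 to 0.060), MDH1 (-0.34 to 0.075), MDH2 (-0.037 to 0.11), ME1 (-0.17 to 0.0090), ME2 (-0.49 to 0.99), PDHA1 (-0.018 to 0.085), PDHX (-0.17 to 0.081), PDK1 (-0.069 to 0.050), PDK2 (-0.64 to 0.49), SLC25A1 (-0.10 to 0.33), SUCLA2 (-0.16 to 0.32), SUCLG2 (-0.16 to 0.15) and the transcript CS-212 (-1.67 to 0.35). None of these was called, and the cause was not tested. SDHA lay between 1.03 and 2.40 without 1 sample. After seeing the data, transcripts were left out of a sum: CS without CS-201 gave -0.23, SDHA without SDHA-213 gave 0.97, and SDHD without SDHD-202 and SDHD-205 gave -0.11.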
